A study of Mus musculus with 11 samples.

Results

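The miRNAs of the mouse hairpins miR-290a, miR-290b, miR-292a and miR-292b were followed across 11 small RNA libraries of embryonic stem cells that differ in DGCR8. Both arms of each hairpin were taken by name (mmu-miR-290a-5p, mmu-miR-290a-3p, mmu-miR-290b-5p, mmu-miR-290b-3p, mmu-miR-292a-5p, mmu-miR-292a-3p, mmu-miR-292b-5p and mmu-miR-292b-3p, written below without the prefix), which gave 8 of the 1966 mature miRNAs listed, and all 8 were among the 730 that passed the low-count filter. The study asked how DGCR8 with the E518K change, and the loss of DGCR8, alter the miRNAs of these cells. The E518K cells carry a doxycycline-inducible vector for Flag-tagged DGCR8 E518K (pSB ET iE-FlagDGCR8-E518K) and were labelled DGCR8 E518K/E518K. The E518K libraries with doxycycline came from clones 8, 13 and 15, and clone 8 was also sequenced untreated. The KO cells were labelled DGCR8 -/- and non-transfected, and gave 3 libraries with doxycycline. The wild-type cells carry the same kind of vector for wild-type DGCR8 (pSB ET iE-FlagDGCR8-wt) and were labelled DGCR8 wt/wt. Their libraries with doxycycline came from clones 10, 12 and 16, and clone 10 was also sequenced untreated. Both transfected kinds of line also received the transposase plasmid pCMV(CAT)-SB100X. All lines share 1 strain label, from Novus Biochemicals, were grown without feeder cells in 2i medium with LIF, and, where treated, received 300 ng/mL doxycycline for 48 h, the KO included. The transfected lines thus carry a vector for DGCR8, and what drives DGCR8 without doxycycline is not stated in the labels. The 3 KO libraries are titled with the same clone number, 261, and no label tells whether they were separate cultures, so their spread may be technical. Dgcr8 messenger RNA is not counted in small RNA libraries, so the genotype labels were not checked against it.

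DGCR8 binds the RNA and guides the nuclease Drosha, and together they cut hairpins out of primary miRNA transcripts in the nucleus. Dicer then cuts the hairpin to a duplex of a 5p and a 3p arm, of which one is usually kept in an Argonaute protein, where bases 2 to 8, the seed, pair with target messenger RNAs. The miR-290 to miR-295 cluster is a row of hairpins on one primary transcript and is the leading miRNA cluster of mouse embryonic stem cells, where arms with the AAGUGC seed core are known to ease passage from G1 to S phase. At miR-290 and miR-292 a second hairpin is annotated on the opposite strand, named miR-290b and miR-292b, so that each place holds 4 annotated arms.

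On the mouse genome build GRCm38.p6 the hairpins lie on chromosome 7. Mir290a runs from 3218626 to 3218708 on the plus strand, and Mir290b from 3218638 to 3218695 on the minus strand inside those bounds. Mir292, the hairpin of miR-292a, runs from 3219189 to 3219270 on the plus strand, and Mir292b from 3219198 to 3219259 on the minus strand. There are 480 bases between Mir290a and Mir292. The Mir290 hairpins lie outside any part of Nlrp12, an inflammasome-related gene on the minus strand, with 75 bases between Mir290a and that gene's 3′ end. The Mir292 hairpins lie within the untranslated part of the last exon of Nlrp12, Mir292b on the strand of that gene and Mir292 on the other.

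**Figure D1:**
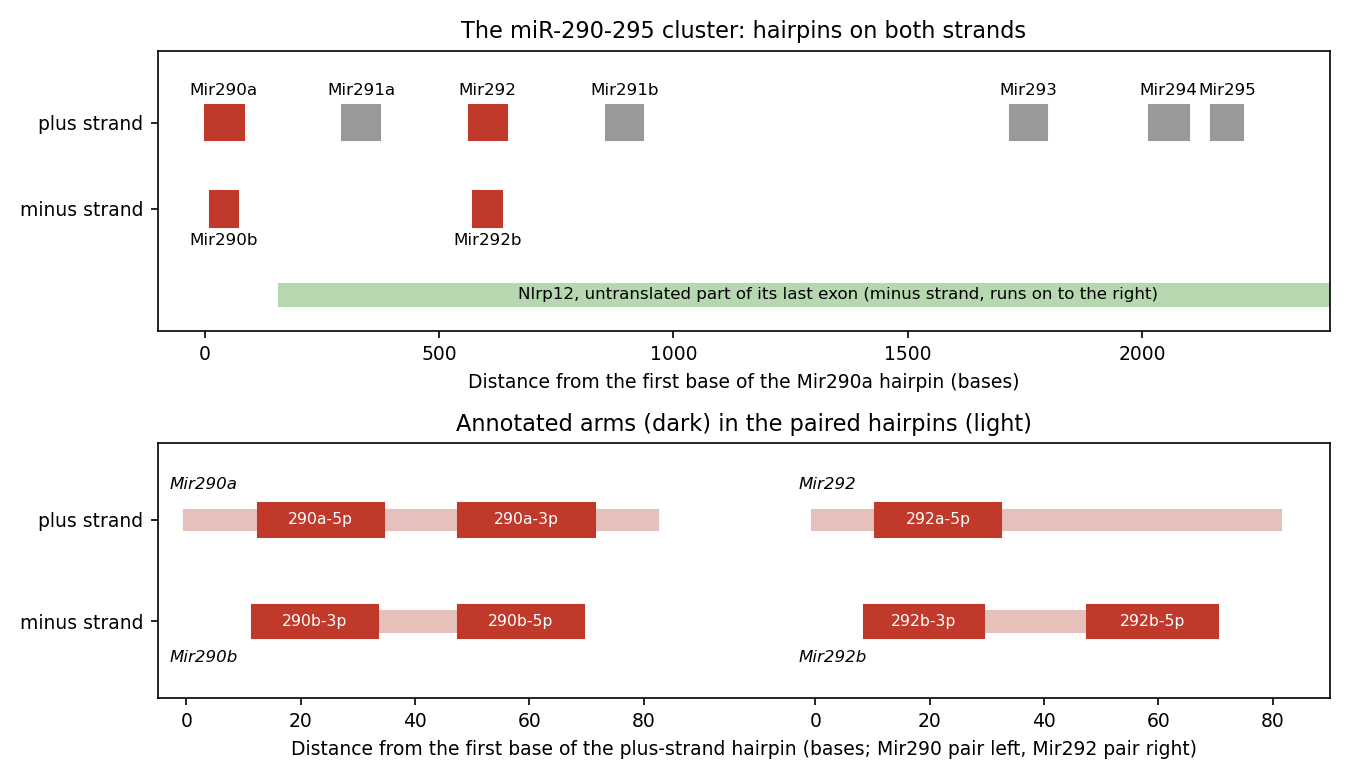
Position of the hairpins of the miR-290 to miR-295 cluster on each strand (top, in bases from the first base of Mir290a; hairpins of miR-290 and miR-292 in red, others in grey, Nlrp12 in green) and of the annotated arms within the 2 strand-paired hairpins (bottom, in bases from the first base of the plus-strand hairpin). Each arm of the minus-strand hairpins miR-290b lies across from an arm of miR-290a, with 5p facing 3p, and miR-292b-3p lies across from miR-292a-5p; no position is drawn for miR-292a-3p.

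The mature sequences, from RefSeq on GRCm38.p6, are shown because the strand pairing decides what the counts can separate. RefSeq matched 7 of the 8 arms; miR-292a-3p is named only. Sequences run 5′ to 3′ and capitals mark the seed.
miR-290a-5p: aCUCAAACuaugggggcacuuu
miR-290b-3p: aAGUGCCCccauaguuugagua
miR-290a-3p: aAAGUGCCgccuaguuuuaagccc
miR-290b-5p: gCUUAAAAcuaggcggcacuuu
miR-292a-5p: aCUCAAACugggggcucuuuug
miR-292b-3p: aAGAGCCCccaguuugaguau
miR-292b-5p: aCUCAAAAccuggcggcacuuuu
The first 6 are set in strand pairs. miR-290a-5p and miR-290b-3p share 21 genome positions, miR-290a-3p and miR-290b-5p share 22, and miR-292a-5p and miR-292b-3p share 19, and every shared base is complementary. The capitals show that the arms of each strand pair have different seeds. miR-290a-5p and miR-292a-5p have the same seed and the same first 9 bases.

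Libraries differed in depth. Total miRNA counts ran from 1050564 to 1797240 in E518K with doxycycline and were 264507 in untreated E518K, from 166676 to 208846 in the KO, and from 3394216 to 6128734 in wild type with doxycycline, with 1421247 in untreated wild type. Of the counts from 1 to 40, 90.3% were even, so most molecules seem to have been counted in steps of 2, and a count of 0 was read as allowing up to 6 counts per library. That limit was 3.93 to 6.04 CPM (counts scaled to a common library size, by TMM) in E518K with doxycycline, 12.8 to 18.3 in the KO and 1.11 to 2.94 in wild type with doxycycline. Of 6 embryonic stem cell marker miRNAs, 3 of them from this cluster, 3 were at 0 in all KO libraries; their summed share was 1.99% to 3.16% in E518K with doxycycline, 0.0174% to 0.0319% in the KO and 1.51% to 2.90% in wild type with doxycycline. Since the cluster needs DGCR8, these markers do not check the cell type in the KO. The 5 fibroblast markers were detected in every group, with a summed share of 0.163% to 0.220% in E518K with doxycycline, 1.23% to 1.74% in the KO and 0.220% to 0.317% in wild type with doxycycline; their part in the results below was not tested.

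The arms of each strand pair had the same or nearly the same counts. miR-290a-3p and miR-290b-5p had identical counts in 11 of 11 libraries, with a sum of 674 each. miR-290a-5p and miR-290b-3p were identical in 7 libraries and never differed by more than 2 counts, with sums of 27366 and 27374. miR-292a-5p and miR-292b-3p were identical in 5 libraries, and the largest gap elsewhere was 0.0255% of the count, with sums of 3602600 and 3602479. miR-292a-3p and miR-292b-5p were identical in 4 libraries; in the other 7 miR-292b-5p had more counts, by up to 173 counts and by up to 1.80%. The 8 listed arms are therefore 4 measured positions, and the counts cannot say from which strand the small RNAs came. Over all miRNAs with reference positions, 17 pairs of arms lay across from each other on opposite strands (at least 15 shared bases and 100 counts). These include miR-290a-5p with miR-290b-3p, miR-290a-3p with miR-290b-5p and miR-292a-5p with miR-292b-3p, described above. In 16 of the 17 pairs, the count differences per library, added up, came to at most 2% of the added larger counts. The exception was miR-497a-3p with miR-497b, which differed by 12.3%. Values are given below for the plus-strand name of each position, miR-290a-5p, miR-290a-3p, miR-292a-5p and miR-292a-3p.

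The 4 positions differed in level by orders of magnitude, in the same order in every induced wild-type and E518K library. miR-292a-5p was the highest. It had 216002, 107293 and 199739 counts in E518K clones 8, 13 and 15 with doxycycline, 190, 148 and 476 in the KO, and 659602, 1189962 and 860070 in wild-type clones 10, 12 and 16 with doxycycline. As a share of all miRNA counts this was 12.1% ± 1.94 in E518K, 0.154% ± 0.110 in the KO and 17.8% ± 2.85 in wild type (SD, n = 3 each). No library of one genotype overlapped with one of another on that scale. It ranked first of all miRNAs in each wild-type library, untreated included; in E518K clones 8, 13 and 15 with doxycycline it ranked 2, 3 and 1, and in the KO 38, 51 and 25, with the minus-strand arms of miR-290 and miR-292 left out of the ranking.

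miR-292a-3p was next. It had 7471, 4646 and 5503 counts in E518K with doxycycline, 0, 2 and 6 in the KO, and 16430, 34277 and 39589 in wild type with doxycycline. Its share was 0.415% ± 0.0272 in E518K, 0.00158% ± 0.00180 in the KO and 0.570% ± 0.0920 in wild type, again without overlap between genotypes. The KO values are at or under the limit that a count of 0 allows.

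miR-290a-5p, which starts like miR-292a-5p, was far lower. It had 1594, 1082 and 677 counts in E518K with doxycycline, 6, 0 and 4 in the KO, and 3045, 9187 and 10754 in wild type with doxycycline. Its share was 0.0798% ± 0.0287 in E518K, 0.00174% ± 0.00153 in the KO and 0.140% ± 0.0465 in wild type; E518K and wild type overlapped, since wild-type clone 10 had 0.0897% and E518K clone 13 had 0.103%. miR-290a-3p was the lowest. It had 41, 31 and 46 counts in E518K with doxycycline, 2, 0 and 0 in the KO, and 82, 157 and 209 in wild type with doxycycline. Its share was 0.00282% ± 0.000493 in E518K and 0.00283% ± 0.000601 in wild type, with overlapping libraries.

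**Figure D2:**
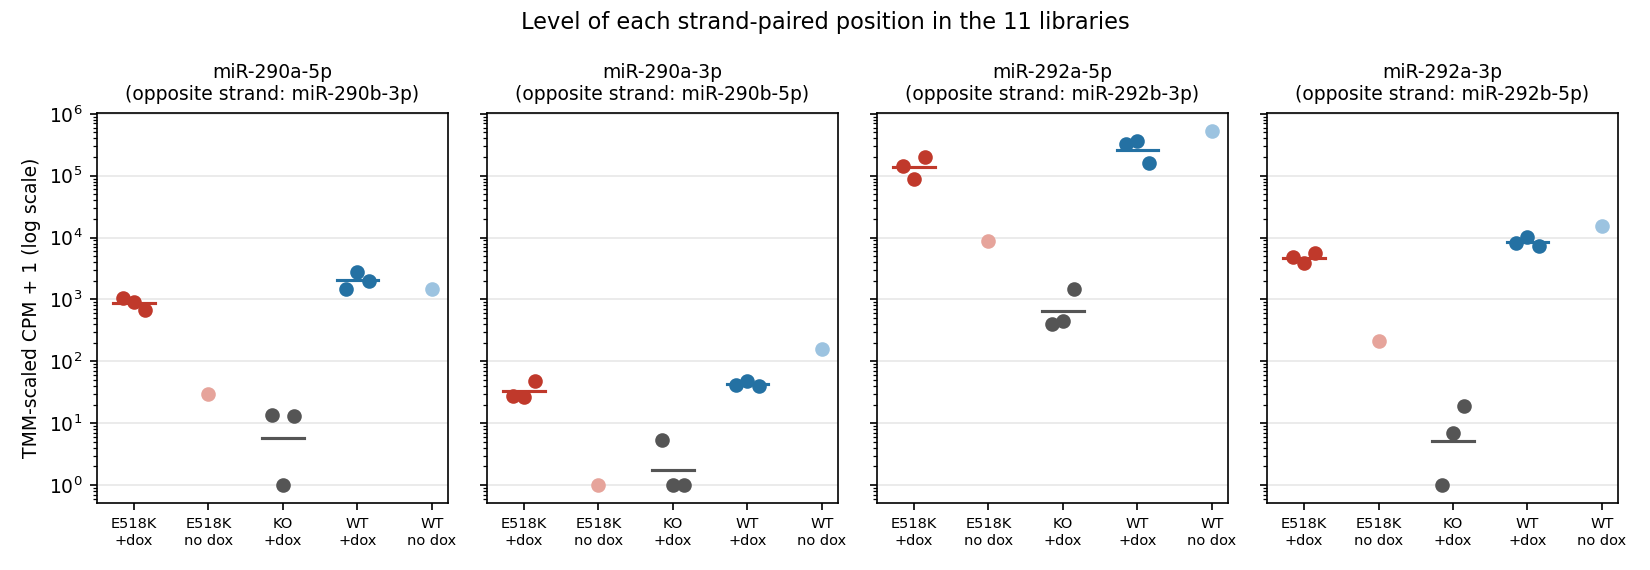
TMM-scaled CPM plus 1 of the 4 positions (log axis) in each library; points are libraries, the bar in a group of 3 is the mean of the log values, and the arm named in brackets lies on the opposite strand and has the same or nearly the same counts. KO points lie below both induced groups at every position, and far below them apart from miR-290a-3p, which has 2 counts over the KO libraries. E518K and wild type with doxycycline lie within an order of magnitude of each other.

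Counted as listed, the 8 arms held 25.2% ± 3.76 of the miRNA counts in E518K with doxycycline, 0.315% ± 0.225 in the KO and 37.0% ± 5.46 in wild type with doxycycline (SD, n = 3 each). Since each molecule seems to enter under both names of a strand pair, these shares count it more than once. With miRNAs of the same counts merged in the members and in the total, the shares were 14.5% ± 2.47, 0.158% ± 0.113 and 22.9% ± 4.02. E518K lay below wild type in 3 of 3 libraries against each of 3, by 11.8 percentage points on average as listed. The two-sided exact permutation test gave p = 0.1 for each of the 3 comparisons, the smallest p that 3 against 3 libraries allow.

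In the KO all 4 positions fell against wild type. miR-292a-5p changed by −8.52 log2 units (SE 0.58, adjusted p = 4.3e-40, edgeR quasi-likelihood test with Benjamini-Hochberg adjustment over 730 miRNAs), with a TMM-scaled level of 767.1 ± 593.5 CPM in the KO and 281300 ± 107300 CPM in wild type. miR-292a-3p changed by −10.18 (SE 0.62, adjusted p = 5.3e-51) and miR-290a-5p by −7.89 (SE 0.57, adjusted p = 5.4e-38); they rest on 8 and 10 counts in the KO libraries together. miR-290a-3p changed by −4.54 (SE 0.87, adjusted p = 4.9e-07) and rests on 2 counts in the KO; on pooled counts its share was 0.127 times that of wild type, with a 95% counting interval from 0.00319 to 0.713. All 8 listed arms were called lower in the KO, against 58.4% of the 730 tested miRNAs, and none overlapped with wild type, against 60.0% of all tested that lay lower without overlap. The members' median was −8.21 against −3.54 over all tested miRNAs (−1.03 with miRNAs at 0 in a group set to their bound). miR-292a-5p was the position that remained countable in the KO, with 814 counts over the 3 libraries, and KO library 3 held 476 of them. The sizes moved with the scaling, though no call did. With total counts miR-292a-5p changed by −6.86. It changed by −10.32 with the authors' pRPM scaling, in which all libraries of a group have the same total. The value was −13.83 with scaling by miRNAs that do not need DGCR8. Leaving out KO library 2 gave −7.54, and leaving out wild-type clone 10 or 12 gave −7.82 or −7.67. miR-292a-3p was at −9.35 without KO library 2, −11.01 without KO library 3 and −9.46 without wild-type clone 12; miR-290a-5p was at −9.06 without KO library 1, −6.59 without KO library 2 and −7.04 without wild-type clone 12. For miR-290a-3p the value was −3.26 without KO library 2, −3.33 without KO library 3 and −3.83 without wild-type clone 12; KO library 1 holds the only KO counts. P-values for the KO use a spread shared by all groups. In bulk libraries such as these, fewer cells with a miRNA and less of it per cell cannot be told apart.

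Against wild type, 3 of the 4 positions were lower in E518K, and miR-290a-3p did not pass the test. miR-290a-5p fell by 1.26 log2 units (SE 0.38, edgeR adjusted p = 0.0022), with 874.7 ± 181.9 CPM in E518K and 2091 ± 652.9 CPM in wild type and no overlap of the TMM-scaled values. miR-292a-5p fell by 0.97 (SE 0.42, adjusted p = 0.037), with 143900 ± 56010 CPM in E518K and 281300 ± 107300 CPM in wild type; here the scaled values overlapped, since wild-type clone 16 had 159400 CPM and E518K clone 15 had 201100. miR-292a-3p fell by 0.85 (SE 0.38, adjusted p = 0.042), with 4764 ± 846.2 CPM in E518K and 8599 ± 1603 CPM in wild type and no overlap. miR-290a-3p had 32.97 ± 11.57 CPM in E518K and 42.2 ± 4.78 CPM in wild type (−0.37, SE 0.49, adjusted p = 0.51). By listed arms this was 6 of 8 lower, against 35.3% of all tested miRNAs called lower and 28.2% called higher. Their median was −0.91, against −0.14 over all tested miRNAs. The groups did not overlap for 4 of 8 arms, all lower, against 38.8% of all tested miRNAs.

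The 3 calls in E518K were not equally firm. The call of miR-290a-5p was lost when libraries were scaled by total counts (−0.81, adjusted p = 0.095) and without wild-type clone 16 (−0.62, adjusted p = 0.26), whose TMM factor, 0.91, was the highest of the wild-type libraries. The call of miR-292a-5p was lost with total counts (−0.55, adjusted p = 0.12), with DESeq2 size factors (−1.16, adjusted p = 0.052) and in the DESeq2 test (adjusted p = 0.051), with same-count miRNAs merged (−0.72, adjusted p = 0.095), without the untreated libraries (−0.91, adjusted p = 0.12), and without any of wild-type clones 10, 12 and 16 and E518K clones 8 and 13 (adjusted p from 0.14 to 0.51); it was kept without E518K clone 15. The call of miR-292a-3p was lost in each of the 6 fits without 1 library (adjusted p from 0.058 to 0.75). Its change there was −0.95 without wild-type clone 10, −0.91 without E518K clone 15, −0.76 without wild-type clone 12, −0.69 and −0.66 without E518K clones 8 and 13, and −0.21 without wild-type clone 16. It was also lost with total counts (−0.46, adjusted p = 0.30), with same-count miRNAs merged (−0.68, 0.12) and without the untreated libraries (−0.80, 0.087). All 3 values stayed below 0 in every setting tried. With scaling by miRNAs that do not need DGCR8 they were larger. They were −4.05 for miR-290a-5p, −3.72 for miR-292a-5p and −3.62 for miR-292a-3p (edgeR adjusted p = 3.3e-21, 9.2e-14 and 6.4e-17). That scaling rests on 12 miRNAs with counts, chosen by name. miR-290a-3p was above 0 without wild-type clone 16 (0.34, adjusted p = 0.66) and passed the test, at −3.13, only under that scaling, which moved the median of all miRNAs to −2.90.

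**Figure D3:**
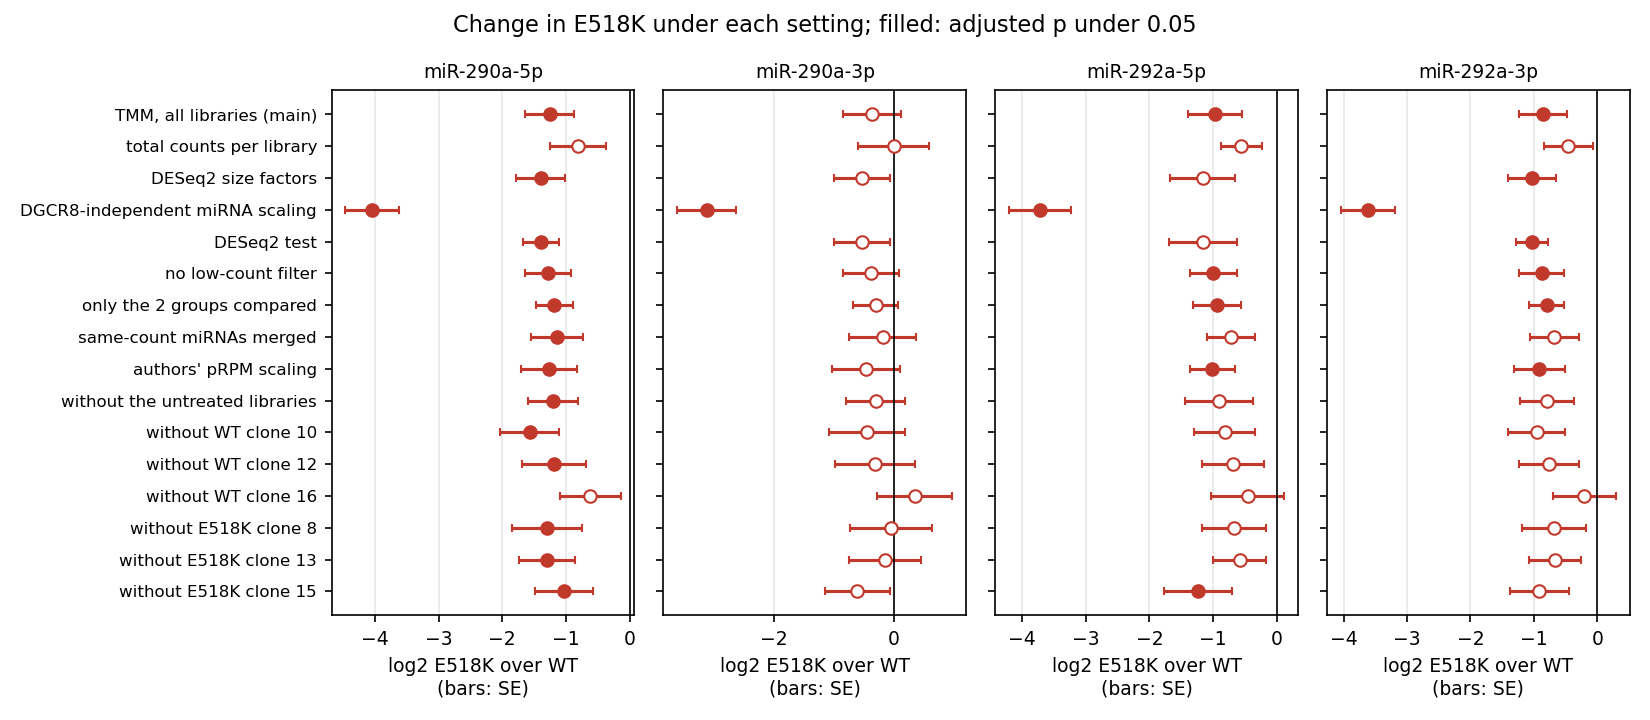
log2 change of E518K over wild type, both with doxycycline, for the 4 positions under each setting tried; points are fitted changes, bars are SE, and filled points have an adjusted p under 0.05. miR-290a-5p is filled in all but 2 settings, while without 1 library the points of miR-292a-3p are open, as are those of miR-292a-5p apart from the fit without E518K clone 15.

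E518K cells were above the KO at all 4 positions. miR-292a-5p was higher by 7.55 log2 units (SE 0.56, adjusted p = 6.3e-35, edgeR), miR-292a-3p by 9.33 (SE 0.60, adjusted p = 2.4e-45), miR-290a-5p by 6.64 (SE 0.56, adjusted p = 3.7e-29) and miR-290a-3p by 4.17 (SE 0.90, adjusted p = 1.1e-05). The last rests on 118 counts in E518K against 2 in the KO, a ratio of shares of 7.53 with a 95% counting interval from 1.30 to 303. All 8 listed arms were called higher, against 41.9% of all tested miRNAs, and none overlapped with the KO, against 42.7% of all tested that lay higher without overlap. They had a median of 7.09 against 1.34 over all tested (0.17 with miRNAs at 0 set to their bound). For miR-292a-5p the value was 6.30 with total counts, 9.31 with pRPM scaling, 10.11 with scaling by miRNAs that do not need DGCR8 and 6.65 without KO library 2. miR-292a-3p was at 8.48 without KO library 2, 10.13 without KO library 3 and 10.04 without E518K clone 15. miR-290a-5p was at 7.88 without KO library 1, 5.24 without KO library 2, 6.03 without KO library 3, 5.94 without E518K clone 13, 7.67 without E518K clone 15 and 5.83 without E518K clone 8. miR-290a-3p was at 2.89 without KO library 2 and 2.95 without KO library 3. This comparison and the one of E518K with wild type share the E518K libraries, and the KO and E518K comparisons with wild type share the wild-type libraries.

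By the plus-strand names, the 5p arm dominated both hairpins. Under the minus-strand names the same or nearly the same counts belong to miR-290b-3p and miR-292b-3p, and the counts cannot tell the strands apart. For miR-292a the 5p count was 28.9, 23.1 and 36.3 times the 3p count in E518K clones 8, 13 and 15 with doxycycline, and 40.1, 34.7 and 21.7 times in wild-type clones 10, 12 and 16. The log2 ratio differed by −0.11 between the groups, with overlapping libraries (two-sided exact permutation p = 0.8). For miR-290a the 5p count was 38.9, 34.9 and 14.7 times the 3p count in E518K, and 37.1, 58.5 and 51.5 times in wild type (log2 difference −0.85, overlapping, exact p = 0.2). With a pseudocount of 10 the E518K and wild-type libraries did not overlap (−1.04, exact p = 0.1). A library's scaling drops out of such a ratio. In the KO 1 library had no miR-292a-3p and the other two had ratios of 74 and 79.3 on 2 and 6 counts of that arm, so the order against the other groups turned with the pseudocount: the log2 difference from wild type was 1.47 with a pseudocount of 1 and −0.64 with 10. The miR-290a ratio in the KO rests on at most 6 counts per library and is not read.

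The 10 other arms of the miR-290 to miR-295 cluster, from 5 further hairpins of the same primary transcript, were set beside the members. Together they held 4.12% ± 0.744 of the counts in E518K, 0.0620% ± 0.0238 in the KO and 18.5% ± 1.08 in wild type, without overlap. In the KO all 10 were called lower than in wild type, against 58.4% of all tested miRNAs. In E518K all 10 were called higher than in the KO, against 41.9% of all tested. The members were called the same way. Against wild type, 3 of 10 fell in E518K and none rose, with a median of −0.14, where 35.3% of all tested miRNAs were called lower and 28.2% higher, so the share that fell is near the background. These were miR-293-5p (−4.22, SE 0.46, adjusted p = 1.7e-17), miR-293-3p (−3.55, SE 0.43, adjusted p = 1.8e-14) and miR-291b-3p (adjusted p = 0.028), which had 136 ± 4.83 CPM in E518K and 272.5 ± 61.4 CPM in wild type. The arms miR-291a-3p, miR-294-3p and miR-295-3p, known for the AAGUGCU seed and the G1 to S transition, had values of −0.35, 0.20 and −0.35 that did not pass (adjusted p = 0.42, 0.65 and 0.42).

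**Figure D4:**
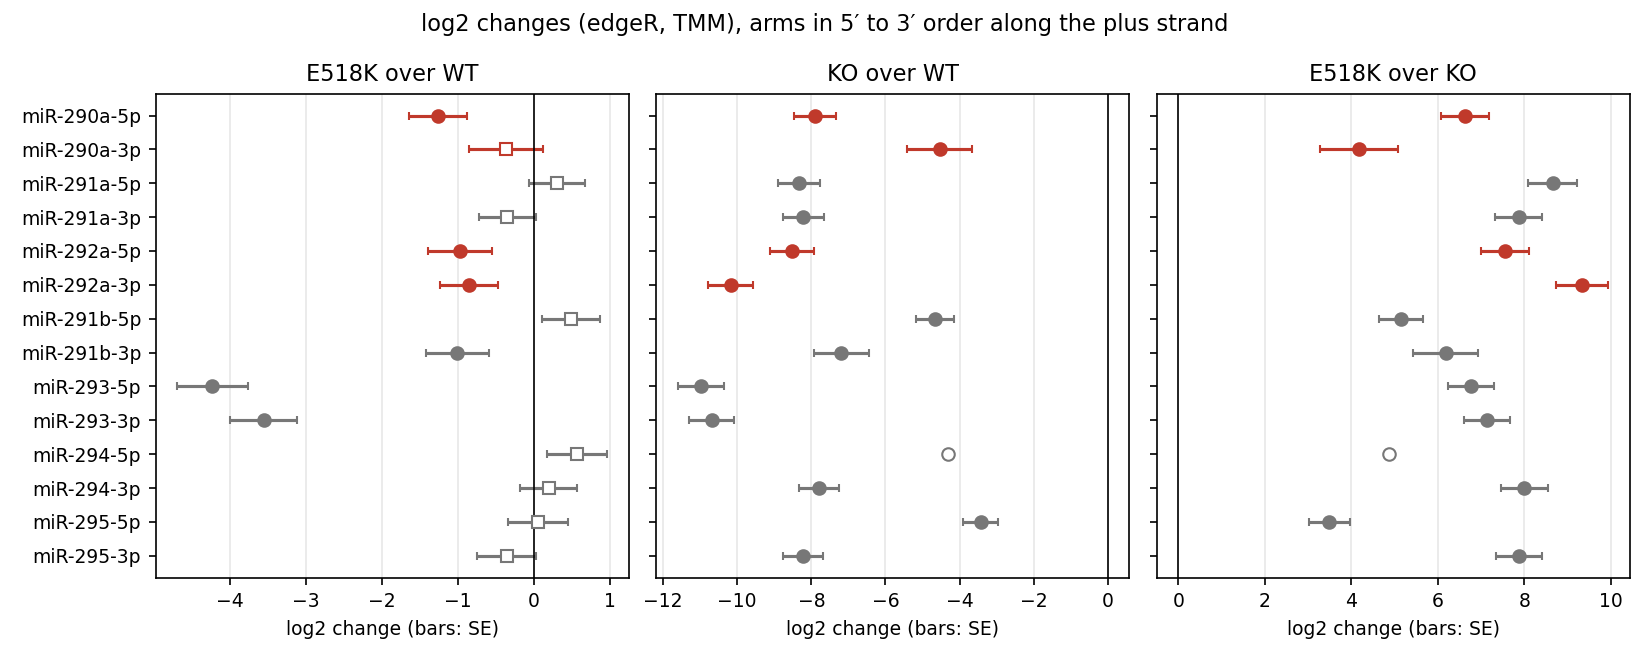
log2 change (edgeR, TMM) of the 4 positions (red) and the 10 other arms of the cluster (grey) in 3 comparisons, in order along the plus strand; bars are SE, filled circles passed at an adjusted p under 0.05, squares did not, and the open circle is the bound for miR-294-5p, which had 0 counts in the KO. In E518K over wild type both miR-293 arms lie far to the left of the miR-290 and miR-292 arms.

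Within a library, the ratio of miR-292a-5p to each miR-293 arm did not overlap between E518K and wild type, while its ratios to 4 other arms did. These ratios were chosen after the values were seen. miR-292a-5p had 12.2, 11.2 and 16.8 counts for each count of miR-293-5p in E518K with doxycycline, 4.87, 8.71 and 9.15 in the KO, and 1.56, 1.42 and 1.25 in wild type with doxycycline. The log2 ratio was higher by 3.23 in E518K than in wild type, without overlap (exact permutation p = 0.1, 0.36 after adjustment over 18 ratios and comparisons). Over miR-293-3p it was higher by 2.62, also without overlap (exact permutation p = 0.1, adjusted 0.36). Over miR-290a-5p, miR-291a-3p, miR-294-3p and miR-295-3p the E518K and wild-type libraries overlapped (differences of 0.27, −0.59, −1.18 and −0.63). The untreated wild-type library had 10.3 counts of miR-292a-5p for each count of miR-293-5p. This was near the induced E518K libraries and KO libraries 2 and 3, and not near the induced wild-type ones.

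**Figure D5:**
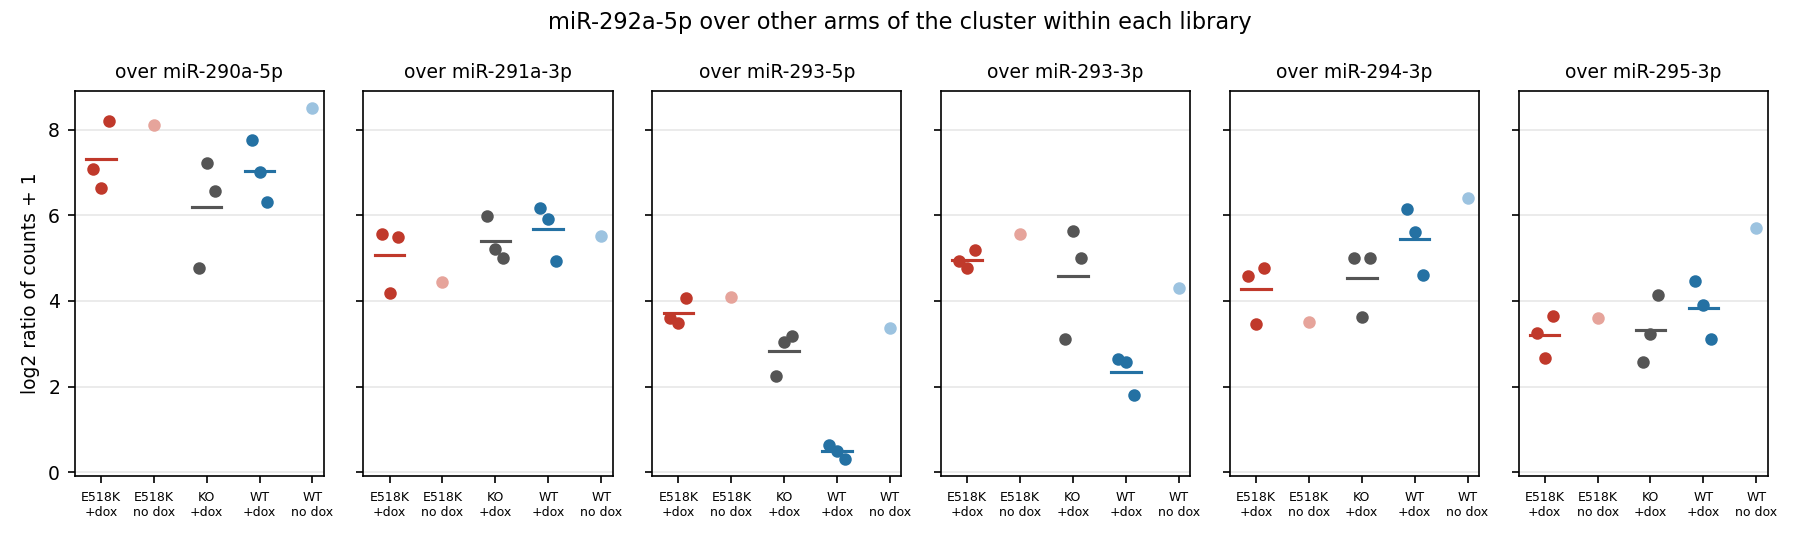
log2 ratio of miR-292a-5p counts to counts of 6 other arms of the cluster (each plus 1) in each library; points are libraries and bars are group means. Over miR-293-5p the induced wild-type libraries lie between 0.32 and 0.64, below every other library; over the other arms outside miR-293 the 3 groups with doxycycline overlap.

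Seeds were compared over the mature sequences of the reference table. The seed CUCAAAC belongs to miR-290a-5p, miR-292a-5p and miR-293-5p, and CUCAAAA to miR-292b-5p and miR-294-5p, so the 2 arms outside the members are shown here:
miR-293-5p: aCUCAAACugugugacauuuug
miR-294-5p: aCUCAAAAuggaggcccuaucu
miR-290a-5p shares its first 9 bases with miR-292a-5p, and miR-292a-5p its first 10 with miR-293-5p. All 3 arms with CUCAAAC were called lower in E518K than in wild type, with log2 changes of −1.26, −0.97 and −4.22; the differences between them were not tested. Over all tested miRNAs 35.3% were called lower, and the calls of miR-290a-5p and miR-292a-5p are lost in the settings given above. miR-294-5p had 480.2 ± 80.7 CPM in E518K and 322.9 ± 115.7 CPM in wild type (0.57, SE 0.40, adjusted p = 0.19), and miR-292b-5p is counted with miR-292a-3p.

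The untreated libraries, 1 per genotype and without a test, were far apart. In E518K clone 8, miR-292a-5p held 12.0% of the counts with doxycycline and 1.05% untreated (95% exact interval 0.993% to 1.10%), an 11.5-fold difference. In wild-type clone 10 it held 19.4% with doxycycline and 25.8% untreated (25.7% to 25.9%), 0.754 times as much with doxycycline. miR-292a-3p had 7471 counts with doxycycline and 68 untreated in E518K clone 8, a share 16.2 times as high with doxycycline; in wild-type clone 10 the share with doxycycline was 0.645 times that untreated. miR-290a-5p had 1594 counts with doxycycline and 9 untreated in E518K clone 8 (a share 26.1 times as high), and 3045 with doxycycline and 1008 untreated in wild-type clone 10 (1.26 times). miR-290a-3p had 41 counts with doxycycline and 0 untreated in E518K clone 8, which is 26.8 TMM-scaled CPM with doxycycline, while 0 counts allow up to 19.1 CPM untreated; no fold is given. In wild-type clone 10 it had 82 counts with doxycycline and 106 untreated, a share 0.324 times as high with doxycycline. The untreated E518K library thus lay between the KO and the induced E518K libraries for miR-292a-5p and miR-292a-3p. By share and TMM-scaled CPM the untreated wild-type library lay above all others for both. In the authors' pRPM, whose total was 938495 in each induced wild-type library and 685878 in the untreated one, it did not. Its miR-292a-5p value there was 176800, with 182400, 182200 and 136000 in wild-type clones 10, 12 and 16 with doxycycline. Its miR-292a-3p value was 5143, with 4543, 5249 and 6261 in those clones. Marker miRNAs also differed in the untreated libraries. The 6 embryonic stem cell markers summed to 0.227% in untreated E518K, with 2 at 0, and to 1.40% in untreated wild type; the 5 fibroblast markers summed to 0.904% and 0.358% in the same libraries. The liver marker had 0.0121% in untreated E518K, 0.0108% to 0.0177% in the KO and 0.0000653% to 0.000303% in wild type with doxycycline. The 2 neuron markers summed to 0.0386% in untreated E518K, with 1 at 0, to 0.00354% to 0.0144% in the KO, and to 0.0422% to 0.0715% in wild type with doxycycline. Their part in the results was not tested.

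Across the 11 libraries, the 4 positions followed each other with Pearson's r from 0.825 to 0.988 on log2 (CPM + 1), as a description only, since the libraries share genotype groups and depths. The tested miRNAs outside the cluster with the pattern most like that of miR-292a-5p were miR-434-5p (r = 0.990), miR-434-3p (0.983) and miR-3071-5p (0.983), which is counted like miR-136-3p on the opposite strand. For miR-292a-3p they were miR-543-3p (0.984), miR-103-3p (0.982) and miR-434-5p (0.981). For miR-290a-5p they were miR-200c-3p (0.971), miR-30b-5p (0.964) and miR-302b-3p (0.964), and for miR-290a-3p miR-130a-3p (0.981), miR-146a-5p (0.957) and miR-30d-3p (0.952).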

How the data were processed

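Total RNA went into NEBNext Multiplex Small RNA libraries, per the labels' protocols. The authors deposited raw counts per mature miRNA (1966 listed, 11 libraries) and a second table in a scaled RPM unit, pRPM per the file headers. STAR, bedtools and the build GRCm38.p6 are named, per the submitters' processing notes; how reads were trimmed, assigned to strands and counted is not stated there. The pRPM total was the same in all libraries of a group. It was 938495 in induced wild type, 683476 in induced E518K and 85006.4 in the KO. In the untreated libraries it was 685878 for wild type and 138451 for E518K. Differences between groups in pRPM thus carry 1 factor per group. Of the pRPM values, 100% gave whole reads within 0.01 reads and 100% of these equalled the deposited counts. A count test on them made the same 464, 645 and 497 calls, which equal counts fix in advance, so it adds no check. Another deposited file was identical to the pRPM file and was not used here.

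Counts were tested with edgeR 4.0.16 in R 4.3.3 (robust quasi-likelihood fit, TMM scaling, filterByExpr with minimum count 10 and minimum total 15) over all 11 libraries in 5 groups. P-values were adjusted by Benjamini-Hochberg over 730 miRNAs, with a threshold of 0.05. The untreated groups have 1 library each. Shares and ratios used two-sided exact permutation tests, with a smallest p of 0.1; log2 ratios used a pseudocount of 1. Intervals are exact (Clopper-Pearson, 95%) on counts divided by 2, since most counts were even; intervals and zero limits cover counting error only. DESeq2 1.42.0 and other scalings were alternatives. Scaling by miRNAs that do not need DGCR8 used 13 listed miRNAs chosen by name, 12 of them with counts. Their independence of DGCR8 was not tested here. Reference sequences came from RefSeq and positions from the annotation of GRCm38.p6. The members, lists and tests were chosen with earlier results of these data known. Named are the 8 arms, the 10 other cluster arms, arms with the same seed, and the 3 miRNAs most correlated with each position.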

Additional observations from a re-analysis of the deposited data

Results flagged for a closer look

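For the miR-292 positions, the shares with and without doxycycline differed in opposite directions in the 2 clones sequenced both ways. For miR-292a-5p the log2 change of the share with doxycycline was 3.52 in E518K clone 8 and −0.41 in wild-type clone 10. For miR-292a-3p it was 4.01 in E518K clone 8 and −0.63 in wild-type clone 10. For miR-292a-5p the opposite direction depended on the scale. In the authors' pRPM wild-type clone 10 had 182400 with doxycycline and 176800 untreated. The pRPM total of a library is the same throughout its group, 938495 for induced and 685878 for untreated wild type. For miR-292a-3p it had 4543 and 5143, so the direction there was kept. Each log2 change compares 1 library with 1 library, and the difference between the clones was not tested.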

How the results depend on the processing

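Against wild type, 6 of the 8 arms were called in E518K; the number was 0 with total counts, 2 with same-count miRNAs merged, 2 without the untreated libraries (chosen after seeing the data), 0 to 4 without 1 library, 4 with DESeq2 size factors or the DESeq2 test, 6 with the authors' pRPM scaling (also added later) and 8 with scaling by DGCR8-independent miRNAs. Without wild-type clone 16 no arm was called, and miR-290a-3p and miR-290b-5p turned to 0.34 (−0.61 to 0.34 over the fits without 1 library). In the KO against wild type and in E518K against the KO 8 arms were called under each alternative run. The split of all E518K calls against wild type moved with the scaling: 206 higher and 258 lower with TMM, 227 and 216 with total counts, 177 and 269 with DESeq2 size factors, 183 and 250 with pRPM scaling, 12 and 498 with DGCR8-independent miRNAs, and 250 and 164 without wild-type clone 16. The median change of all miRNAs was then −0.14, 0.21, −0.29, −0.19, −2.90 and 0.73. Of the KO against wild type it was 219 higher and 426 lower with TMM, 245 and 319 with total counts, 167 and 468 with pRPM scaling and 26 and 536 with DGCR8-independent miRNAs; of E518K against the KO 306 and 191, 250 and 249, 380 and 61, and 412 and 30. The miR-292a arm ratio in E518K against wild type ran from −0.37 to 0.075 without 1 library, turning to 0.056 without E518K clone 13 and to 0.075 without wild-type clone 10. With a pseudocount of 10 it turned to −0.64 for the KO against wild type (1.47 with 1) and to 0.53 for E518K against the KO (−1.58 with 1), since the KO libraries hold at most 6 counts of miR-292a-3p. The 8-arm share of E518K minus wild type stayed between −14.9 and −9.94 percentage points without 1 library. Of 384 results of single arms under alternatives, 338 kept direction and side of the threshold, 42 lost the call, 2 gained it and 2 changed sign. The cause was not tested. This total counts each position under both of its names. It also holds the test on counts recovered from pRPM, whose results equal counts fix in advance, so its kept results add no check. All losses, gains and sign changes were in E518K against wild type. There miR-292a-5p lost its call in 10 alternatives and kept it in 6. The numbers were 9 and 7 for miR-292a-3p, and 2 and 14 for miR-290a-5p. Each number kept includes the test on counts recovered from pRPM. No paired analysis was possible because the clone numbers of the groups compared are not shared. Depth limits the KO most: 3 of the 4 positions have at most 6 counts in a library there.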
